A study of Mus musculus with 48 samples.

Results

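The 4 WT hippocampi and the 4 WT frontal cortices of postnatal week (PWK) 7 were compared with each other across all genes. The labels define these 8 libraries, out of 48 libraries of 24 mice in 12 groups (2 regions, 2 genotypes and PWK 1, 7 and 14). All mice were on a C57BL/6N background, the WT mice were littermates of *Cyfip2*+/- mice, no mouse is described as treated, and the labels give no sex. Both regions were dissected from both hemispheres of each mouse, so the 8 libraries come from 4 mice, and replicate 1 to 4 is here called mouse 1 to 4. RNA was sequenced from whole pieces of tissue, with neurons, glia, vessels and any adjoining tissue together. In such bulk samples, fewer cells of a type and less RNA per cell cannot be told apart.

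The hippocampus and the neocortex develop from the same sheet of embryonic dorsal forebrain and are built from related excitatory neurons. The hippocampus is folded into the dentate gyrus, whose granule cells receive the input from the entorhinal cortex, and the fields CA3, CA2 and CA1, through which the signal is passed on. The neocortex is stacked in layers, of which the upper ones connect cortical areas with each other and the deep ones project out of the cortex. The 2 regions also differ in the inhibitory neurons they hold, in receptor subunits and in what lies next to them: the hippocampus borders the lateral ventricle with its ependyma and choroid plexus, and the frontal cortex lies over the white matter and the striatum.

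The values are normalised read counts as the authors deposited them, and where values are listed they are those of mice 1, 2, 3 and 4 in that order. Of 18428 genes in the table, 17019 reached 10 in at least 4 of the 8 libraries and were tested with limma on log2 of the normalised count plus 1. Log2 fold changes are hippocampus over cortex, on that scale, with standard errors, and a gene was called a differentially expressed gene (DEG) at a Benjamini-Hochberg adjusted p below 0.05. Over all genes, 2 libraries of the same region correlated at 0.987 to 0.991 and libraries of different regions at 0.949 to 0.961. The normalised counts of a library summed to 33.1 to 33.7 M (M, mega) in the cortex and 31.0 to 31.6 M in the hippocampus, which are not read depths. The residual standard deviation of a gene had a median of 0.12 on the log2 scale.

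There were 4028 DEGs higher in the hippocampus (23.7% of the genes tested) and 4036 lower (23.7%), or 47.4% in either direction. With an absolute log2 fold change of at least 1 asked for as well, 908 genes were higher (5.34%) and 830 lower (4.88%). The fit with the mouse as a block called 49.4% of the genes. The values of the 2 regions did not overlap in 44.4% of the genes, with the hippocampus above the cortex in 22.2% and below it in 22.1%. The median log2 fold change of all genes tested was 0.012, and the gene lists are to be read against this median and these shares. Where a gene's regions did not overlap, the gap is given as the lowest value of the higher region over the highest value of the lower region, and a number in parentheses after further genes of a sentence is again a log2 fold change.

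**Figure D1:**
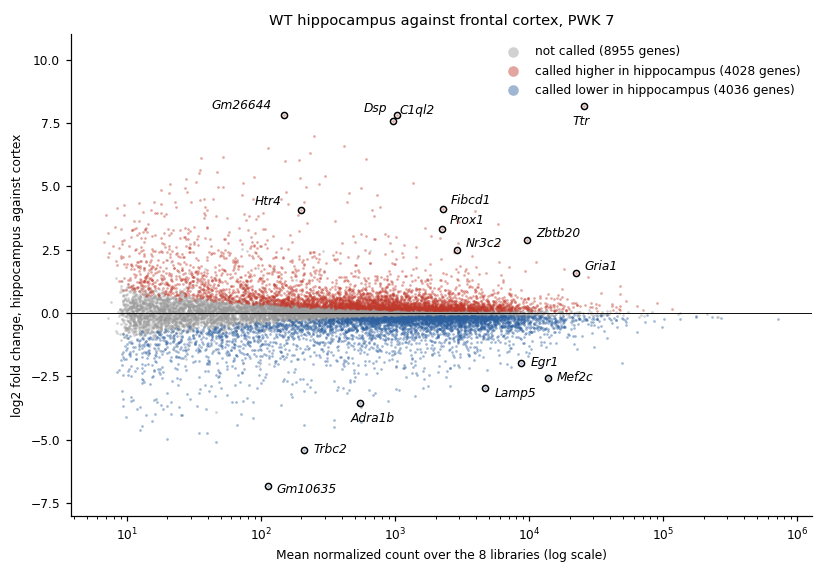
Each point is 1 of 17019 genes, with its mean normalised count over the 8 libraries (log scale) on the x axis and its log2 fold change, hippocampus over cortex, on the y axis. Red points are the 4028 DEGs higher in the hippocampus, blue points the 4036 lower and grey points the genes not called; the genes farthest from 0 are *Ttr* at 8.16 and *Gm10635* at -6.84.

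Of the 15 DEGs with the largest differences toward the hippocampus, 5 belong to the list of choroid plexus markers, namely *Ttr*, *Otx2* (log2 fold change 6.53), *Slc4a5* (6.33), *Clic6* (6.07) and *Folr1* (5.34). *Ttr*, which encodes the thyroid hormone carrier transthyretin, counted 128, 269.9, 669 and 34.1 in the cortex against 49244, 55480.4, 72623 and 27802 in the hippocampus (log2 fold change 8.16 ± 0.68 (SE), limma adjusted p = 1.21e-06). All 4 hippocampi lay far above all 4 cortices, and the hippocampus of mouse 4 was the lowest of its group. *Kcne2* and *Cldn2*, a potassium channel subunit and a tight junction protein also known from choroid plexus epithelium, were higher as well (log2 fold changes 6.00 and 6.05). Dentate granule cell genes stood beside these, with *Dsp* (desmoplakin) at a log2 fold change of 7.81 and *C1ql2* at 7.60, and so did *Lhx9*, a LIM homeobox gene, at 7.00. *Gm26644*, annotated as a long intergenic non-coding RNA (chromosome 19, 44685811 to 44695460 of GRCm38), counted 0, 0, 0.746 and 0.745 in the cortex against 279.5, 331, 336 and 248 in the hippocampus (log2 fold change 7.81 ± 0.27 (SE), limma adjusted p = 1.01e-09). Its fold change, like that of every gene near 0 in one region, depends on the 1 that was added before taking logarithms. The remaining 4 of the 15 were *Mfrp* (log2 fold change 6.60), *Prr32* (6.16), the sodium-proton exchanger *Slc9a4* (5.42) and the keratin *Krt2* (5.36). Of the 15, *Slc4a5*, *Kcne2* and *Mfrp* were not called in WT mice of PWK 14 (limma adjusted p = 0.0501, 0.107 and 0.0611). *Prr32*, *Slc9a4* and *Krt2* were (limma adjusted p = 0.0372, 4.58e-08 and 2.34e-05). The hippocampus of mouse 4 was lowest for *Mfrp* (369), *Prr32* (57.1) and *Slc9a4* (461), and the part of choroid plexus in them was not tested. *Mfrp* overlaps *C1qtnf5*, *Clic6* overlaps *2410124H12Rik* and *Otx2* overlaps *Gm49154*, on the same strand, so reads could be shared between each pair.

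The 15 largest differences toward the cortex were smaller, and none of them was in a list of a neighbouring tissue. *Gm10635*, another long intergenic non-coding RNA (chromosome 9, 79444037 to 79519302 of GRCm38), counted 239.9, 211, 227 and 213 in the cortex against 0.879, 1.79, 0 and 1.75 in the hippocampus (log2 fold change -6.84 ± 0.32 (SE), limma adjusted p = 9.38e-09). *Trbc2*, a constant segment of the T cell receptor beta chain, counted 409, 358, 445 and 426 in the cortex against 6.18, 9.32, 8.64 and 11.5 in the hippocampus (log2 fold change -5.40 ± 0.18 (SE), limma adjusted p = 8.19e-10). The gap between the regions was 31.1-fold for *Trbc2*. *Myl4* (log2 fold change -4.30) and *Tnnc1* (-4.20) encode a myosin light chain and a troponin best known from heart muscle. *Adra1b*, the alpha-1B adrenergic receptor, counted 1015, 1056, 1068 and 886 in the cortex against 70.5, 89.9, 85.0 and 94.0 in the hippocampus (log2 fold change -3.56 ± 0.11 (SE), limma adjusted p = 2.35e-10). The others were *Dkkl1* (log2 fold change -4.51), the keratin *Krt80* (-4.43), the protease-activated receptor *F2rl2* (-4.41), *A830009L08Rik* (-4.15) and the lymphocyte surface protein *Cd6* (-3.97). *Rasgef1c* (log2 fold change -3.72), the zinc finger gene *Ovol2* (-3.61), *Tgm3* (-3.51), *Rxfp2* (-3.51) and *Neu2* (-3.51) completed the 15. *A830009L08Rik* overlaps *Gm29540*, *Rxfp2* overlaps *Gm42558* and *Neu2* overlaps *Gm17181*, on the same strand, so reads could be shared there too.

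The markers of the hippocampal fields, chosen with earlier results of these data known, are not an independent check of the region labels. Most of these markers were higher in the hippocampus, and *Prox1*, *Dsp*, *C1ql2*, *Fibcd1* and *Gpr161* were higher in all 4 of its libraries than in any cortex. Of 12 dentate granule cell markers, 10 were higher and 1 was lower (median log2 fold change 1.44). *Prox1*, the homeobox gene that specifies granule cells (ENSMUSG00000010175, chromosome 1, 190118035 to 190170714 of GRCm38), counted 429, 408, 407 and 379 in the cortex against 4154, 4084, 4271 and 3713 in the hippocampus (log2 fold change 3.32 ± 0.06 (SE), limma adjusted p = 6.78e-12). *Dsp* counted 8.51, 6.41, 9.58 and 8.56 in the cortex against 2166, 2219, 2140.3 and 1754 in the hippocampus (log2 fold change 7.81 ± 0.14 (SE), limma adjusted p = 6.78e-12). *C1ql2*, a C1q-like protein secreted at mossy fibre synapses, counted 7.42, 11.2, 8.42 and 9.05 in the cortex against 1837, 1937, 2218 and 1724 in the hippocampus (log2 fold change 7.60 ± 0.14 (SE), limma adjusted p = 7.74e-12). The gaps between the regions were 8.66-fold for *Prox1*, 183-fold for *Dsp* and 154-fold for *C1ql2*, and the hippocampus of mouse 4 was the lowest for all 3. *Lct* (log2 fold change 4.17), *Tdo2* (3.17) and *Glis3* (2.11) were higher too, whereas *Stxbp6* (0.25), *Plk5* (0.30) and *Fam163b* (0.18) were higher by little. *Plk5* was not called with all 48 libraries in the fit (limma adjusted p = 0.471) or without mouse 2 or 3, nor *Fam163b* with all 48 (0.219). *C1ql3* was the member called lower (log2 fold change -0.23, limma adjusted p = 0.0428), with overlapping values. Its call was lost in 10 of 22 alternatives (limma adjusted p = 0.0539 to 0.231), among them all 48 libraries in the fit, quantile normalisation and most fits without 1 library or mouse, and *Npnt* was not called (-0.11, limma adjusted p = 0.106).

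Of 10 CA1 pyramidal cell markers, 9 were higher and 1 was lower, with the largest median of the field lists (2.00). *Fibcd1* (chromosome 2, 31813290 to 31846005 of GRCm38) counted 218, 237, 265 and 259 in the cortex against 4571, 4222, 4120.3 and 4207 in the hippocampus (log2 fold change 4.13 ± 0.07 (SE), limma adjusted p = 6.78e-12). *Gpr161*, an orphan receptor of the primary cilium, counted 294, 267, 277 and 328 in the cortex against 3180.3, 3018, 2751 and 3164 in the hippocampus (log2 fold change 3.37 ± 0.07 (SE), limma adjusted p = 2.8e-11). The gaps were 15.5-fold and 8.39-fold, and no mouse stood apart in either gene. *Lefty1* (log2 fold change 4.78), *Spink8* (4.40) and the heparan sulphate sulfotransferase gene *Ndst4* (4.37) were higher from low levels in the cortex. *Wfs1*, the Wolfram syndrome gene, was higher (log2 fold change 0.58), and *Mpped1* was the member that was lower (-0.46).

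Of 8 CA2 markers tested, 7 were higher and 1 was lower (median 1.45). *Amigo2*, an adhesion protein, counted 208, 230.2, 214 and 189 in the cortex against 852, 737, 772 and 799 in the hippocampus (log2 fold change 1.90 ± 0.08 (SE), limma adjusted p = 4.16e-09). *Rgs14*, which restrains plasticity in CA2, was higher (log2 fold change 1.03), as were *Ntf3* (neurotrophin 3, 3.83) and *Sostdc1*, an antagonist of BMP and Wnt signals (4.51). *Pcp4*, a calmodulin-binding protein that layer 5 neurons also make, was the exception at 5354, 5294, 5113 and 5073 in the cortex against 2047, 2128, 2078 and 2047 in the hippocampus (log2 fold change -1.33 ± 0.04 (SE), limma adjusted p = 1.39e-10). A gene used to mark CA2 within the hippocampus was thus higher in every cortex, with a gap of 2.38-fold. *Avpr1b*, the vasopressin 1b receptor, was listed at 0 in all 4 cortices and between 9.89 and 26.6 in the hippocampi, and did not reach the level for a test. *Sostdc1* counted 248, 282, 343 and 212 in the hippocampi, which ranked the mice as the choroid plexus sum given below did. An order of 4 mice cannot separate sources, and the part of choroid plexus in the level of *Sostdc1* was not tested.

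Of 8 CA3 markers, 6 were higher and 2 were lower (median 0.52), and of 5 mossy cell markers 4 were higher and none lower (median 0.61). *Iyd*, an iodotyrosine deiodinase, counted 7.04, 7.05, 2.63 and 2.61 in the cortex against 142, 168, 137 and 109 in the hippocampus (log2 fold change 4.68 ± 0.31 (SE), limma adjusted p = 1.75e-07). *Grik4*, the high-affinity kainate receptor subunit of mossy fibre synapses, was higher (log2 fold change 0.96), as was the zinc finger gene *Trps1* (1.01). *Coch* (log2 fold change -1.87) and the collagen gene *Col6a1* (-0.78) were lower. *Calb2*, which encodes calretinin and in the mouse hilus marks mossy cells, counted 251, 262, 267 and 269.7 in the cortex against 1113, 893, 1026 and 1091 in the hippocampus (log2 fold change 1.97 ± 0.08 (SE), limma adjusted p = 2.32e-09). Calretinin also marks interneurons of both regions. *Drd2*, the dopamine D2 receptor, was not called and counted 74.4, 184, 52.4 and 244 in the cortex against 69.6, 71.6, 80.4 and 72.3 in the hippocampus (log2 fold change -0.64 ± 0.39 (SE), limma adjusted p = 0.205). The cortices of mice 2 and 4 were above all other libraries for *Drd2*, as they were for other striatal genes described below.

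The markers of the cortical layers gave a less even picture than those of the hippocampal fields. Of 10 upper-layer markers, 9 were lower and 1 was higher (median -1.57). *Lamp5* (chromosome 2, 136052239 to 136069917 of GRCm38), a membrane protein of upper-layer neurons and of neurogliaform interneurons, counted 9179, 8317, 8467 and 7333 in the cortex against 1062, 1106, 925 and 1253 in the hippocampus (log2 fold change -2.94 ± 0.09 (SE), limma adjusted p = 2.36e-10). *Cux2*, a homeobox gene of upper-layer neurons, counted 4226, 4149.6, 4130.4 and 4206 in the cortex against 802, 856, 815 and 1329 in the hippocampus (log2 fold change -2.17 ± 0.13 (SE), limma adjusted p = 7.2e-08). The hippocampus of mouse 4 was above the 3 others for *Cux2* and still below every cortex. *Stard8* (log2 fold change -2.51), *Rspo1* (-2.65), *Otof* (-1.98) and the layer 4 gene *Rorb* (-1.17) were lower as well. *Scnn1a*, a sodium channel subunit used to mark layer 4, was the exception at 61.4, 70.2, 57.7 and 55.0 in the cortex against 199, 233, 252 and 201 in the hippocampus (log2 fold change 1.84 ± 0.13 (SE), limma adjusted p = 2.77e-07).

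Of 9 layer 5 markers, 6 were higher in the hippocampus and 2 were lower (median 0.36). *Bcl11b*, which encodes the transcription factor CTIP2 of subcerebral projection neurons and of CA1 and dentate neurons, counted 2240.2, 2321, 2319.5 and 2379 in the cortex against 4794, 4936, 4893 and 4809 in the hippocampus (log2 fold change 1.07 ± 0.04 (SE), limma adjusted p = 5.73e-10). *Bcl6* (log2 fold change 0.91), *Npr3* (0.88) and *Etv1* (0.36) were also higher. *Deptor*, an inhibitor of mTOR, counted 1726, 1674, 1573 and 1524 in the cortex against 538, 588, 479 and 574 in the hippocampus (log2 fold change -1.58 ± 0.07 (SE), limma adjusted p = 7.03e-09) and went the other way, with *Ldb2* (log2 fold change -0.93). *Fezf2*, which specifies corticospinal neurons, was not called (log2 fold change -0.07, limma adjusted p = 0.328).

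Of 11 layer 6 and subplate markers, 9 were lower and 1 was higher (median -1.34). *Foxp2*, a forkhead gene of corticothalamic neurons, counted 441, 409, 456 and 504 in the cortex against 44.2, 62.1, 47.4 and 52.7 in the hippocampus (log2 fold change -3.11 ± 0.13 (SE), limma adjusted p = 3.1e-09). *Tbr1*, the T-box gene that specifies layer 6, counted 4844, 4517, 4704 and 4642 in the cortex against 1375, 1537, 1300.0 and 1405 in the hippocampus (log2 fold change -1.74 ± 0.05 (SE), limma adjusted p = 2.36e-10). The gaps were 6.59-fold and 2.94-fold. *Syt6* (log2 fold change -2.40), *Oprk1* (the kappa opioid receptor, -1.90), *Cplx3* (-1.85) and *Ccn2* (-1.34) were lower with them. *Nr4a2*, a nuclear receptor of subplate and claustrum neurons, went the other way at 287, 480.2, 354 and 551 in the cortex against 1568, 1653, 1261 and 1786 in the hippocampus (log2 fold change 1.94 ± 0.18 (SE), limma adjusted p = 2.67e-06).

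**Figure D2:**
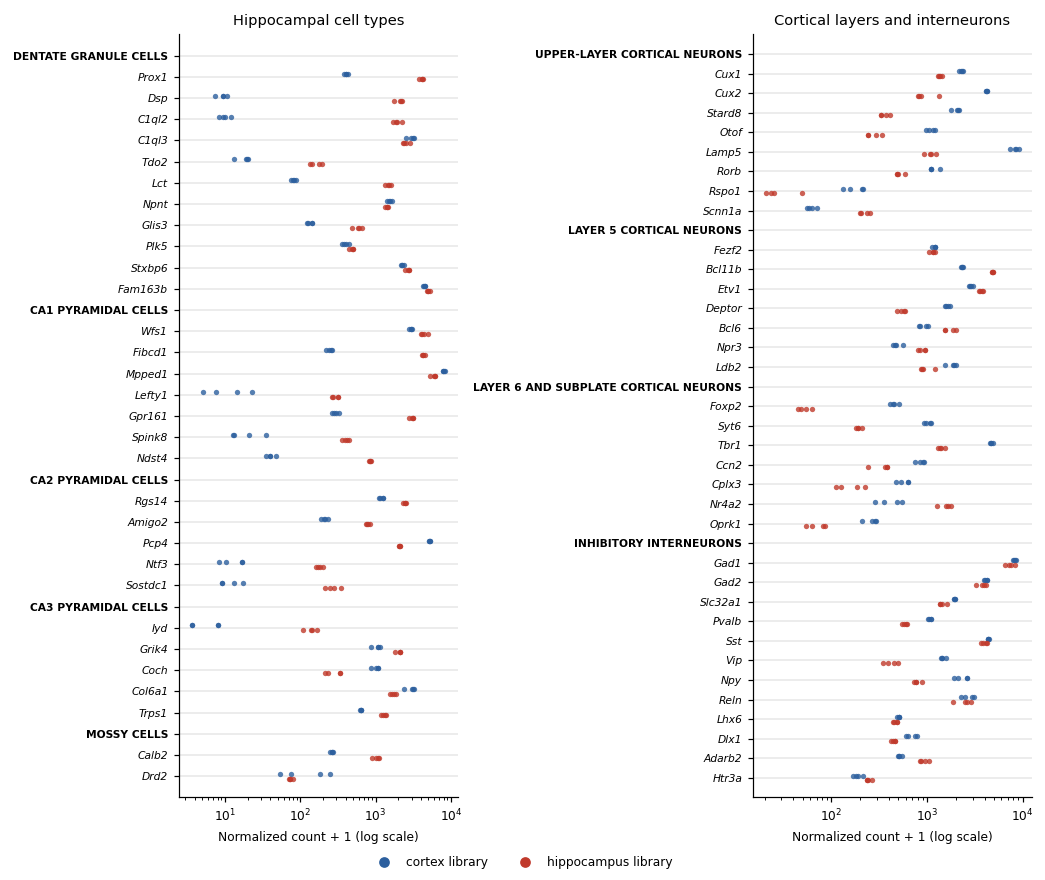
Normalised count plus 1 (x axis, log scale) of the tested markers named in the text for the hippocampal cell types (left) and for the cortical layers and interneurons (right), with 1 blue point for each cortex and 1 red point for each hippocampus. The red points of *Prox1*, *Dsp*, *C1ql2*, *Fibcd1* and *Gpr161* lie to the right of all blue points, those of *Lamp5*, *Cux2*, *Foxp2* and *Tbr1* to the left, and *Pcp4*, *Scnn1a* and *Nr4a2* lie on the side opposite to most of their list.

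Transcription factors that pattern the forebrain were split: of 32, 16 were higher and 12 lower (median 0.17). *Zbtb20*, a zinc finger gene that gives hippocampal neurons their identity (chromosome 16, 42875881 to 43642602 of GRCm38), counted 2122, 2463, 2149.6 and 2416 in the cortex against 16507, 16226, 16651 and 18893 in the hippocampus (log2 fold change 2.90 ± 0.06 (SE), limma adjusted p = 2.38e-11). *Lhx9* counted 2.20, 2.37, 4.09 and 2.95 in the cortex against 588, 472, 451 and 459 in the hippocampus (log2 fold change 7.00 ± 0.20 (SE), limma adjusted p = 1.54e-10). The gap was 6.59-fold for *Zbtb20* and 110.4-fold for *Lhx9*, and the hippocampus of mouse 4 was the highest for *Zbtb20*. *Neurod6* (log2 fold change 0.69) and *Neurod1* (1.28), proneural factors of excitatory neurons, were higher as well.

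On the cortical side, *Mef2c*, an activity-regulated factor of cortical neurons (chromosome 13, 83504034 to 83667080 of GRCm38), counted 23923, 21794, 23713 and 24353 in the cortex against 3387, 4273, 3374 and 5079.8 in the hippocampus (log2 fold change -2.56 ± 0.11 (SE), limma adjusted p = 4.59e-09). The gap was 4.29-fold, and the hippocampi of mice 2 and 4 were the highest of their group. *Meis2* (log2 fold change -1.54), *Tshz3* (-1.39), *Sox5* (-0.75), *Cux1* (-0.75), *Satb1* (-0.72), *Emx1* (-0.66) and *Id2* (-0.60) were lower too.

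Of 12 interneuron markers, 6 were lower and 2 higher (median -0.15). *Gad1*, which makes GABA, counted 8153, 7834, 8249 and 8477 in the cortex against 7218, 7507, 6553 and 8282 in the hippocampus and was not called (log2 fold change -0.15 ± 0.06 (SE), limma adjusted p = 0.0589). It was with the mouse as a block (limma adjusted p = 0.0337), and the cortex was the higher region in all 4 mice. *Slc32a1*, the vesicular GABA transporter, was lower (log2 fold change -0.42). *Vip*, the peptide of interneurons that inhibit other interneurons, counted 1593, 1438, 1445 and 1386 in the cortex against 387, 453, 344 and 493 in the hippocampus (log2 fold change -1.81 ± 0.10 (SE), limma adjusted p = 3.76e-08). *Pvalb*, the calcium buffer of fast-spiking interneurons, counted 1015, 1108, 1036 and 1089 in the cortex against 551, 572, 595 and 610.0 in the hippocampus (log2 fold change -0.87 ± 0.06 (SE), limma adjusted p = 1.44e-07). Both genes were lower in every hippocampus, with gaps of 2.81-fold for *Vip* and 1.66-fold for *Pvalb*. *Dlx1* (log2 fold change -0.62) was lower, *Adarb2* (0.85) and the serotonin receptor *Htr3a* (0.38) were higher, and *Gad2* (-0.13), *Reln* (-0.12) and *Lhx6* (-0.12) were not called.

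Neuropeptide genes leaned to the cortex: of 17 tested, 12 were lower and 3 higher (median -1.20). *Cck*, cholecystokinin, counted 11210.4, 10169.6, 10187 and 10058 in the cortex against 7021, 6838, 6661 and 7147 in the hippocampus (log2 fold change -0.59 ± 0.04 (SE), limma adjusted p = 2.9e-07). *Npy* (log2 fold change -1.54), *Adcyap1* (PACAP, -1.97) and *Crh* (corticotropin-releasing hormone, -1.68) were lower, and *Sst* (somatostatin) was too, by little (-0.15, a call lost in 7 of 22 alternatives). *Nts* (neurotensin) counted 14.3, 18.3, 3.65 and 19.4 in the cortex against 175, 203, 147 and 149.8 in the hippocampus (log2 fold change 3.70 ± 0.40 (SE), limma adjusted p = 1.03e-05). *Nts* was thus above its cortical level in every hippocampus, as were *Grp* (gastrin-releasing peptide, log2 fold change 1.64) and *Nmb* (0.92).

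The receptor families listed each held members that were higher and members that were lower, as did all genes, of which 23.7% were called in each direction. Of 17 ionotropic glutamate receptor subunits tested, 7 were higher and 5 lower (median 0.11). *Gria1*, the GluA1 subunit of AMPA receptors (chromosome 11, 57011387 to 57330244 of GRCm38), counted 11103, 10859, 11565 and 10649.7 in the cortex against 34357, 34036, 33037 and 31710.0 in the hippocampus (log2 fold change 1.59 ± 0.04 (SE), limma adjusted p = 5.67e-11). *Gria4*, the GluA4 subunit, counted 4159.5, 3719.9, 3894 and 4272 in the cortex against 1773, 1919.7, 1627 and 2065 in the hippocampus (log2 fold change -1.12 ± 0.07 (SE), limma adjusted p = 1.09e-07). The gap was 2.74-fold for *Gria1* and 1.80-fold, the other way, for *Gria4*. *Gria2*, which makes AMPA receptors impermeable to calcium, was higher (log2 fold change 0.34), and *Gria3* was lower (log2 fold change -0.59). Among kainate receptors *Grik2* (log2 fold change 0.63) and *Grik4* (0.96) were higher and *Grik3* (-1.31) was lower. The obligatory NMDA receptor subunit *Grin1* was lower (log2 fold change -0.24), while *Grin2b* was higher (log2 fold change 0.24).

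Of 7 metabotropic glutamate receptors, 2 were higher and 3 lower (median -0.17). *Grm5*, which couples to phospholipase C, was higher (log2 fold change 0.50). *Grm8* (log2 fold change -1.85), *Grm4* (-1.15) and *Grm3* (-0.87), which lower cyclic AMP, were the lower ones, and *Grm2* (0.16) and *Grm7* (-0.17) were not called. *Grm7* was called lower with the mouse as a block (limma adjusted p = 0.0326).

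Of 14 GABA-A receptor subunits, 4 were higher and 8 lower (median -0.26). *Gabra5*, the alpha-5 subunit of extrasynaptic receptors in pyramidal cells (chromosome 7, 57407672 to 57510059 of GRCm38), counted 1718, 1452, 1576 and 1579.7 in the cortex against 5109.5, 4911, 5042 and 5066 in the hippocampus (log2 fold change 1.67 ± 0.05 (SE), limma adjusted p = 2.31e-10). *Gabrd*, the delta subunit of extrasynaptic receptors, counted 2092, 2027, 2056 and 2178 in the cortex against 604, 552, 576 and 677 in the hippocampus (log2 fold change -1.80 ± 0.06 (SE), limma adjusted p = 1.2e-09). The 2 genes differed by about the same amount in opposite directions, with no overlap in either. *Gabra2* (log2 fold change 0.95) and *Gabrb1* (0.61) were higher, and *Gabra3* (-1.67) and *Gabrg3* were lower.

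Of 31 receptors for monoamines and acetylcholine, 11 were higher and 13 lower (median -0.13), and some members held large differences in either direction. *Htr2a*, the serotonin 2A receptor, counted 2096, 1756, 2022 and 1788 in the cortex against 415, 449, 382 and 469 in the hippocampus (log2 fold change -2.16 ± 0.08 (SE), limma adjusted p = 1.49e-09). *Htr4*, which raises cyclic AMP, counted 15.7, 22.2, 27.1 and 20.0 in the cortex against 387, 398, 355 and 352 in the hippocampus (log2 fold change 4.09 ± 0.16 (SE), limma adjusted p = 2.51e-09). *Drd5*, the dopamine D5 receptor, counted 92.1, 97.6, 132 and 77.0 in the cortex against 419, 501, 472 and 364 in the hippocampus (log2 fold change 2.15 ± 0.16 (SE), limma adjusted p = 4.03e-07). The gaps were 3.75-fold, 13-fold and 2.76-fold. *Htr5b* (log2 fold change 2.65), *Htr2c* (1.94), *Htr1a* (1.20), *Chrna7* (0.93), *Adra2c* (0.50) and *Adra1d* (0.24, a call lost in 8 of 22 alternatives) were higher in the hippocampus. The part of adhering choroid plexus in the level of these receptors, *Htr2c* among them, was not tested. *Chrm5*, the muscarinic M5 receptor, counted 1.84, 3.67, 1.82 and 1.86 in the cortex against 89.8, 83.7, 49.3 and 69.5 in the hippocampus (log2 fold change 4.49 ± 0.29 (SE), limma adjusted p = 1.41e-07). *Chrm5* was near 0 in every cortex, so its fold change depends on the added 1. The muscarinic receptor *Chrm1* was higher (log2 fold change 0.15) and *Chrm3* lower (-0.33), and *Chrnb2* was not called (0.09, limma adjusted p = 0.0976).

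**Figure D3:**
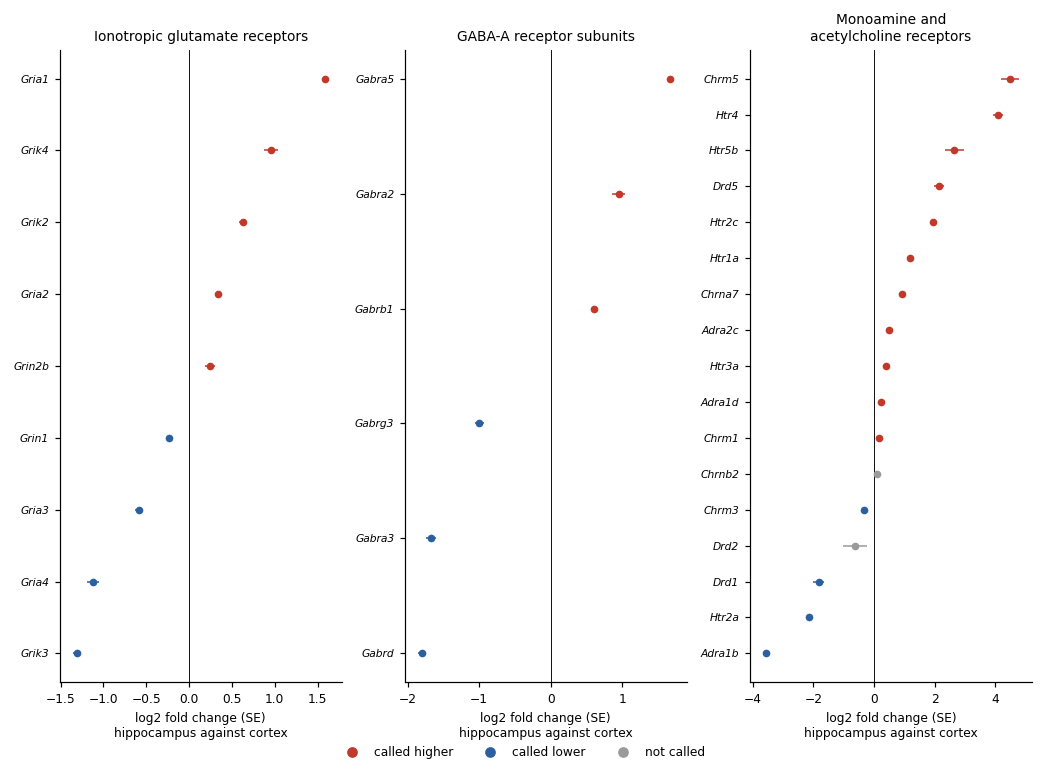
Log2 fold change, hippocampus over cortex (x axis), of the subunits and receptors named in the text, in 3 families, with its standard error as a bar. Red points are DEGs higher in the hippocampus, blue points DEGs lower and grey points not called: each family holds both, from *Gria1* (1.59) to *Grik3* (-1.31), from *Gabra5* (1.67) to *Gabrd* (-1.80) and from *Chrm5* (4.49) to *Adra1b* (-3.56).

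Of 30 subunits of HCN, voltage-gated potassium and calcium channels, 20 were lower and 9 higher (median -0.29). *Cacna1h*, a T-type calcium channel, counted 2538, 2137, 1759 and 1739.5 in the cortex against 4860.0, 4321, 5998 and 4313 in the hippocampus (log2 fold change 1.26 ± 0.13 (SE), limma adjusted p = 6.4e-06). The gap was 1.70-fold. *Kcnh7* (log2 fold change -1.63), the pacemaker channel *Hcn4* (-1.30), *Kcnh1* (-1.16) and the T-type channel *Cacna1i* (-0.84) were lower. *Kcnip2* (log2 fold change 0.69), *Cacna1e* (0.60), *Cacna1c* (0.46), *Kcnd2* (0.38), *Kcna4* (0.38) and *Kcnd3* (0.26, a call lost in 5 of 22 alternatives) were higher.

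Eph receptors and ephrins, which guide axons by contact, held 9 higher and 7 lower members of 20 tested (median 0.07). *Epha6* counted 581, 444, 463 and 549 in the cortex against 2343, 2564, 2263 and 2288 in the hippocampus (log2 fold change 2.22 ± 0.09 (SE), limma adjusted p = 1.94e-09). *Efna5*, an ephrin that binds EphA receptors, counted 776, 683, 623 and 746 in the cortex against 202, 163, 144 and 215 in the hippocampus (log2 fold change -1.97 ± 0.13 (SE), limma adjusted p = 1.25e-07). *Ephb6*, a receptor without kinase activity, counted 5946, 5641, 6207 and 5946 in the cortex against 2028, 1910.2, 1944 and 2121 in the hippocampus (log2 fold change -1.57 ± 0.04 (SE), limma adjusted p = 1.83e-10). The receptor *Epha6* and the ligand *Efna5* were thus high in opposite regions. *Efnb3* (log2 fold change 1.35), *Epha7* (1.05), *Epha4* (0.60) and *Epha5* (0.48) were higher and *Ephb3* (-1.04), *Epha8* (-0.79), *Efnb2* (-0.65), *Ephb1* (-0.64) and *Epha10* (-0.50) lower.

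Of 30 Wnt ligands, receptors and regulators tested, 6 were higher and 9 lower (median 0.07), against 23.7% of all genes in each direction. With the mouse as a block 9 were higher and 10 lower, against 49.4% of all genes in either direction. *Wnt9a* counted 626, 589.5, 642 and 789 in the cortex against 132, 133, 164 and 149 in the hippocampus (log2 fold change -2.19 ± 0.11 (SE), limma adjusted p = 1.5e-08). *Wnt10a* (log2 fold change -2.20), *Wnt2b* (-1.41), *Wnt10b* (-1.35), *Wnt4* (-0.90) and the receptors *Fzd10* (-1.37) and *Fzd3* (-0.54) were lower too, so the ligands with the largest differences were higher in the cortex. *Wnt5a* (log2 fold change 0.79), *Wnt7a* (0.41), *Wnt7b* (0.19), *Fzd7* (0.79), the co-receptor *Lrp6* (0.25) and *Tcf7l1* (0.49) made up the 6 that were higher. *Dkk3* was lower (log2 fold change -0.39).

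Among 13 C1q-like proteins, cerebellins and their adhesion partners, which organise synapses, 2 were higher and 7 lower (median -0.22). Besides *C1ql2*, only *C1ql1* was higher (log2 fold change 0.29), and its call was lost in 7 of 22 alternatives. *Cbln2*, a cerebellin that binds neurexins, counted 1955, 1817, 1878 and 1564 in the cortex against 212, 226, 176 and 295 in the hippocampus (log2 fold change -3.00 ± 0.13 (SE), limma adjusted p = 5.47e-09). The gap for *Cbln2* was 5.30-fold. *Nrxn2* (log2 fold change -0.66), *Nrxn3* (-0.53) and the receptor *Adgrb1* (-0.75) were lower, and *Adgrb2* (0.06) and *Adgrb3* (0.16) were not called. *Adgrb3* was called higher with the mouse as a block (limma adjusted p = 0.0101).

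Of 8 adenylyl cyclases, 1 was higher and 3 lower (median -0.11), against 23.7% of all genes in each direction. *Adcy2* (log2 fold change -0.67), *Adcy7* (-0.74) and *Adcy5* (-0.43) were lower and *Adcy9* (0.19) was higher. *Adcy1*, a calcium-stimulated form, averaged 36807 ± 1432 in the cortex against 35983 ± 1373 in the hippocampus (SD, n = 4) and was not called (log2 fold change -0.03, limma adjusted p = 0.528).

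Of 6 neurotrophin and receptor genes tested, 3 were higher and 1 lower (median 0.60). *Ntf3* counted 9.27, 7.43, 15.7 and 15.9 in the cortex against 181, 169, 197 and 162 in the hippocampus (log2 fold change 3.83 ± 0.24 (SE), limma adjusted p = 9.68e-08), a gap of 10.2-fold. The p75 receptor *Ngfr* was higher (log2 fold change 1.35) and *Ntrk2*, the BDNF receptor, was lower (log2 fold change -0.17). *Bdnf* was not called (log2 fold change -0.25, limma adjusted p = 0.0756), and with the mouse as a block it was called lower (limma adjusted p = 0.0451).

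The corticosteroid receptors differed in opposite directions. *Nr3c2*, the mineralocorticoid receptor, which binds corticosterone with high affinity and is known for its high level in the hippocampus (chromosome 8, 76899442 to 77245012 of GRCm38), counted 910.4, 809, 891 and 882 in the cortex against 4719, 4825, 4783 and 5156 in the hippocampus (log2 fold change 2.48 ± 0.05 (SE), limma adjusted p = 1.47e-11). *Nr3c1*, the glucocorticoid receptor, averaged 3369 ± 162 in the cortex against 2225 ± 70.9 in the hippocampus (SD, n = 4, log2 fold change -0.60 ± 0.05). *Hsd11b1*, which regenerates corticosterone, was higher (log2 fold change 0.91). Of the 8 genes in this list, 4 were higher and 2 lower (median 0.32). *Fkbp5* (log2 fold change 0.97) and *Zbtb16* (0.42), genes that glucocorticoids induce, were among those higher. *Sgk1*, another such gene, was not called and counted 1540.4, 1381, 1265 and 3268 in the cortex against 1722, 1575, 1561 and 3746 in the hippocampus (log2 fold change 0.21 ± 0.32 (SE), limma adjusted p = 0.617). Mouse 4 was far above the other mice in both regions, and within each mouse the hippocampus was the higher region. With the mouse as a block *Sgk1* was called higher (limma adjusted p = 0.00289) and *Tsc22d3* lower (-0.19, limma adjusted p = 0.00577, against 0.462 without it), and without mouse 4 *Sgk1* was called as well (log2 fold change 0.22, limma adjusted p = 0.038). *Per1*, a clock gene that glucocorticoids also induce, was lower (log2 fold change -0.82).

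The immediate early genes listed, which are transcribed within minutes of neuronal activity, were mostly lower in the hippocampus. Of 15, 11 were lower and 1 was higher (median -1.23). Promoters of several of them are known to bind the factors CREB and SRF, and the 130 bases before the annotated start are shown for 2 of the members that were lower, *Fos* (chr12:85473760-85473889, plus strand) and *Egr2* (chr10:67537739-67537868, plus strand, 1 of its 5 annotated starts), and for the member that was higher, *Jun* (chr4:95052223-95052352, minus strand). The sequences are from RefSeq on GRCm38.p6 and run 5′ to 3′ on the strand of the gene, and capitals mark each TGACG, the core of the cAMP response element that CREB binds, on either strand, and each CArG box, the site of SRF.
Fos: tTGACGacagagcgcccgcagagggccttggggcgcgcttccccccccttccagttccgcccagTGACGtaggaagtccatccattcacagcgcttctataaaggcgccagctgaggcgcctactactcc
Egr2: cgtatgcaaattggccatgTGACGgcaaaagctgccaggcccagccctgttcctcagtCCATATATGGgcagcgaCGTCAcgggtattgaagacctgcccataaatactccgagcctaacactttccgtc
Jun: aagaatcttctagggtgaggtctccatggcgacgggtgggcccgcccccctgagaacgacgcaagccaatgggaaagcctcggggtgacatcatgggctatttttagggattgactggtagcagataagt
*Fos* holds 2 matches to TGACG, *Egr2* holds 2 and a CArG box, and *Jun* holds none in this stretch. The start of *Egr2* shown was chosen after the matches were seen. Of its 5 promoter windows of 300 bases (250 before and 50 after a start), 3 hold TGACG and 4 a CArG box, whereas each of the other 10 immediate early genes with a window has 1. Counted by gene over any of its windows, 9 of the 11 held TGACG, against 23% of 27025 genes (20.8% of all 32851 windows). A CArG box was found for 1 of the 11, *Egr2*, and for 1.81% of all genes, and the full element TGACGTCA, which contains TGACG, for 2 (*Dusp1* and *Btg2*) and 2.03%. A match is a description of the letters and not a measured site, and the lack of one covers this window only.

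*Egr2*, a zinc finger transcription factor, counted 379.6, 882, 466 and 1357 in the cortex against 76.2, 75.7, 61.0 and 372 in the hippocampus (log2 fold change -2.65 ± 0.53 (SE), limma adjusted p = 0.00145). *Egr1* counted 10886, 14572, 11698 and 17614 in the cortex against 2970.0, 2859, 2556 and 6434 in the hippocampus (log2 fold change -1.97 ± 0.25 (SE), limma adjusted p = 4.18e-05). *Fos*, a subunit of the factor AP-1, counted 933, 1688, 1001 and 2127 in the cortex against 343, 378, 291 and 1033 in the hippocampus (log2 fold change -1.60 ± 0.37 (SE), limma adjusted p = 0.00337). In both regions mouse 4 was the highest of the 4 for these 3 genes, in the cortex mouse 2 came next, and for *Fos* the hippocampus of mouse 4 overlapped the cortices of mice 1 and 3. *Arc*, whose protein acts at the synapse and regulates AMPA receptors, counted 11815, 18506, 8467 and 21148 in the cortex against 3859.7, 3821, 3192 and 7803 in the hippocampus (log2 fold change -1.68 ± 0.30 (SE), limma adjusted p = 0.000625). *Dusp1* (log2 fold change -1.66), *Npas4* (-1.56) and *Egr3* (-1.46) were lower in the same way. *Jun*, which pairs with *Fos* in AP-1, went the other way at 1099, 1306, 1236 and 1432 in the cortex against 3109.7, 3135, 3141 and 3027 in the hippocampus (log2 fold change 1.30 ± 0.07 (SE), limma adjusted p = 2.37e-08). The gap was 2.11-fold. *Nr4a2*, counted above with the layer 6 and subplate markers and not in this list, was higher as well (log2 fold change 1.94).

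Since both regions came from the same 4 mice, the difference could also be read within each mouse. The summed count of the 15 genes was 43754, 63566, 42802 and 71807 in the cortex against 20407, 20078, 18361 and 33631 in the hippocampus. The hippocampus was at 46.6%, 31.6%, 42.9% and 46.8% of the cortex in mice 1 to 4, and 12, 14, 13 and 13 of the 15 genes were lower. With the mouse as a block 12 genes were called lower, without mouse 4 also 12, and without any other mouse 11. Of the 3 genes not called, *Junb* was called lower with the block (log2 fold change -0.68, limma adjusted p = 0.00155, against 0.0642 without it), whereas *Fosl2* (0.13) and *Btg2* (-0.22) were not. These 3 genes were named after their values were seen.

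Markers of striatal projection neurons had their highest cortical sums in mice 2 and 4, as the immediate early genes had. The summed count of the 12 striatal markers was 10573, 13240.0, 10034 and 14284 in the cortex against 6158, 6248, 6643 and 6176 in the hippocampus. The cortices of mice 2 and 4 were the 2 highest for 11 of the 12 striatal markers and for 13 of the 15 immediate early genes. The share of all genes with these 2 cortices highest was not computed, and genes of 1 library are not independent. Of the 12, 9 were lower in the hippocampus and none higher (median -1.19), and without mice 1, 2, 3 and 4 in turn 10, 8, 11 and 9 were lower. *Adora2a*, the adenosine receptor of indirect pathway neurons, counted 122, 287, 98.9 and 333 in the cortex against 39.6, 50.7, 55.4 and 50.6 in the hippocampus (log2 fold change -1.90 ± 0.34 (SE), limma adjusted p = 0.000643). *Drd1*, the dopamine D1 receptor of direct pathway neurons, was lower too (log2 fold change -1.82). The striatal sum of every cortex lay above that of every hippocampus. The part of striatal tissue in the level of the immediate early genes was not tested.

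**Figure D4:**
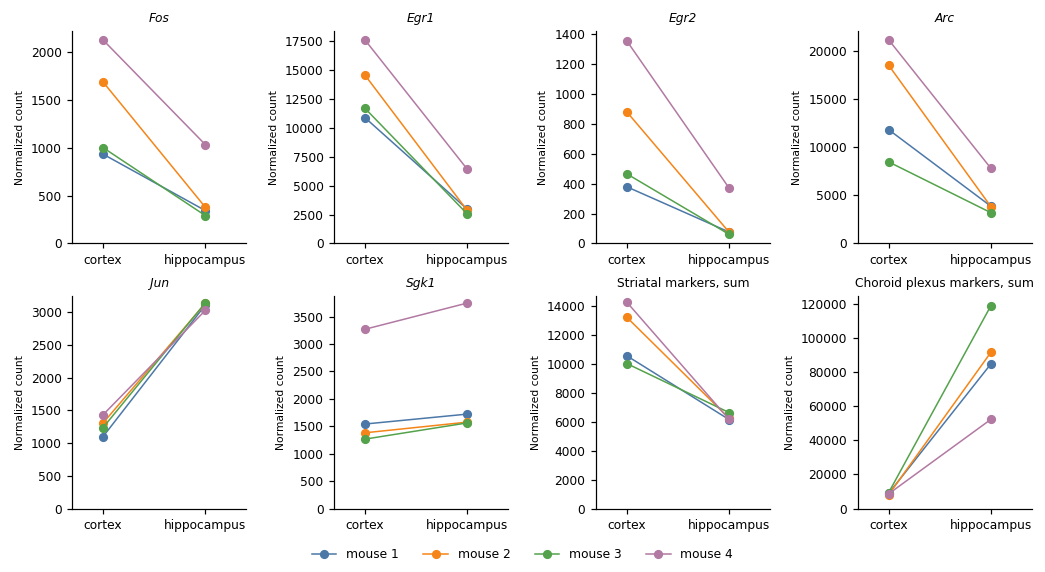
Normalised counts (y axis, from 0) in the cortex and hippocampus of each mouse, joined by a line of 1 colour per mouse, for 6 genes and for the summed counts of 12 striatal and 11 choroid plexus markers. The lines of *Fos*, *Egr1*, *Egr2* and *Arc* fall from cortex to hippocampus in all 4 mice, those of *Jun* and *Sgk1* rise, mouse 4 is highest at both ends for *Fos*, *Egr1*, *Egr2*, *Arc* and *Sgk1*, and the hippocampus of mouse 4 is lowest for the choroid plexus sum.

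All 11 choroid plexus markers were higher in the hippocampus (median 5.14). Their summed count was 8821, 8099, 9285 and 8582 in the cortex against 84638, 91436, 118719 and 52188 in the hippocampus. *Kl*, the klotho gene of choroid plexus and kidney, counted 72.9, 81.4, 82.0 and 52.5 in the cortex against 2649, 2825, 3318 and 1698 in the hippocampus (log2 fold change 5.14 ± 0.19 (SE), limma adjusted p = 1.74e-09). The hippocampus of mouse 4 was the lowest of the 4 for all 11 markers, and all 11 were called when any 1 of the mice was left out. In *Cyfip2*+/- mice of PWK 7 all 11 were called higher (median 5.88), against 21.5% of all genes. In WT mice of PWK 14, 6 of 11 were called higher (median 3.52), against 17% of all genes. At PWK 1, 6 were higher and 1 lower of 9 tested (median 2.45), against 15.9% and 17.8% of all genes. The interaction of region and age called 0 markers between PWK 7 and PWK 14 and 9 between PWK 7 and PWK 1. Of all genes, these 2 interactions called 0.0737% and 16.2%. *Enpp2*, autotaxin, counted 8477, 7627, 8372 and 8346 in the cortex against 27421, 27742, 36528 and 19935 in the hippocampus (log2 fold change 1.73 ± 0.13 (SE), limma adjusted p = 6.08e-07). Oligodendrocytes make it too, and it held most of the summed count in the cortex. *Aqp1* (log2 fold change 4.31), *F5* (4.92), *Prlr* (4.73) and *Kcnj13* (3.57) completed the list. The part of adhering choroid plexus in the other genes that were higher was not tested.

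Ependymal markers were higher in 8 of 8 cases (median 2.02), among them *Foxj1*, the master gene of motile cilia, at 140.2, 128, 154 and 159 in the cortex against 464, 382, 441 and 379 in the hippocampus (log2 fold change 1.51 ± 0.10 (SE), limma adjusted p = 2.28e-07). *Ccdc153*, *Tmem212* (log2 fold change 2.91) and *Mia* (2.63) had the largest differences. Of 8 meningeal fibroblast markers, 6 were higher and none lower (median 0.62), against 23.7% of all genes in each direction. In *Cyfip2*+/- mice of PWK 7, 3 of the 8 were higher (median 0.41), against 21.5% of all genes. In WT mice 2 were higher at PWK 14 (median 0.03) and 4 at PWK 1 (0.21), against 17% and 15.9% of all genes. *Dcn*, the proteoglycan decorin, counted 298, 306, 243 and 252 in the cortex against 1717, 1387, 1113 and 1425 in the hippocampus (log2 fold change 2.35 ± 0.12 (SE), limma adjusted p = 2.1e-08), with a gap of 3.63-fold. *Lum* (log2 fold change 1.52) and *Igf2* (1.25) were higher as well, and *Igf2* was lowest in the hippocampus of mouse 4, as the choroid plexus markers were. Of 7 thalamic markers 3 were higher and 2 lower (median 0.22), among them *Prkcd* (log2 fold change 1.16), *Tnnt1* (-0.90) and the vesicular glutamate transporter *Slc17a6* (0.34, a call lost in 7 of 22 alternatives). Of 4 olfactory bulb markers tested 2 were higher and 1 lower, among them *Cdhr1* (log2 fold change 2.36) and the tyrosine hydroxylase gene *Th* (-2.10).

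Most glial markers differed by little. All 12 markers of mature oligodendrocytes were higher, by 0.19 to 0.47 on the log2 scale (median 0.35). *Mbp*, myelin basic protein, counted 81702, 79951, 72984 and 77175 in the cortex against 104275, 96276, 108895 and 100692 in the hippocampus (log2 fold change 0.40 ± 0.05 (SE), limma adjusted p = 2.41e-05), and *Mobp* (log2 fold change 0.42) and *Ermn* (0.47) were close to it. None of the 12 was called with all 48 libraries in the fit (limma adjusted p = 0.163 for *Mbp*, 0.25 for *Mobp* and 0.0847 for *Ermn*), while 10 to 12 were called without 1 library or mouse. Of 9 markers of oligodendrocyte precursors 6 were higher and none lower (median 0.20), among them *Pdgfra* (log2 fold change 0.20) and *Sox10*, which both stages share (0.31). Without the cortex of mouse 3, 3 of the 9 were called. Astrocyte markers were split, with 5 higher and 3 lower of 11 (median 0.05), and 3 were called higher without the cortex or the hippocampus of mouse 1 or without mouse 1 or 3. *Gfap*, the intermediate filament of astrocytes, counted 3122, 3356, 2874 and 3208 in the cortex against 11413, 10209, 10959 and 11566 in the hippocampus (log2 fold change 1.81 ± 0.05 (SE), limma adjusted p = 2.31e-10). *Aqp4* (log2 fold change 0.66) and the connexin *Gja1* (0.40) were higher, while *Aldh1l1* (-0.71), *S100b* (-0.29) and the glutamate transporter *Slc1a2* (-0.22) were lower. *Gfap* thus differed far more than the other 10 astrocyte markers, whose log2 fold changes lay between -0.71 and 0.66.

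Of the microglial markers 2 of 10 were called, of the endothelial markers 2 of 8 and of the mural cell markers 4 of 6, against 47.4% of all genes. Of 10 microglial markers none was higher and 2 were lower, *Aif1* (log2 fold change -0.54) and *Tmem119* (-0.17, median of the list -0.08), and *Cx3cr1* (-0.08) and *P2ry12* (-0.09) were not called. The call of *Tmem119* was lost in 10 of 22 alternatives (limma adjusted p = 0.0576 to 0.284), among them all 48 libraries in the fit and leaving out any 1 mouse. Of 8 endothelial markers 2 were lower, *Flt1* (log2 fold change -0.29) and *Slco1a4* (-0.18), and none higher (median -0.13). *Slco1a4* was not called with all 48 libraries in the fit (limma adjusted p = 0.186) or without mouse 2 or 4. Of 6 mural cell markers the smooth muscle genes *Acta2* (log2 fold change 0.92) and *Myh11* (0.56) were higher and the pericyte genes *Rgs5* (-0.18) and *Abcc9* (-0.33) lower. The call was lost in 9 of 22 alternatives for *Rgs5* (limma adjusted p = 0.0521 to 0.133) and in 4 for *Abcc9* (0.0542 to 0.0851), and neither was called without the cortex of mouse 2 or without mouse 1.

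The dentate gyrus forms neurons in the adult, and 8 of 13 genes of that lineage were higher and 1 was lower (median 0.79). *Neurod1*, which young granule cells need, counted 254, 255, 257 and 271 in the cortex against 631, 663, 652 and 576 in the hippocampus (log2 fold change 1.28 ± 0.07 (SE), limma adjusted p = 3.74e-08). *Eomes* (log2 fold change 2.60), *Igfbpl1* (2.37) and *Draxin* (1.72), genes of progenitors and neuroblasts, were higher from low levels. *Hopx*, a gene of quiescent stem cells and astrocytes, was higher too (log2 fold change 1.30). *Sox11* (log2 fold change 0.79) and the cyclin *Ccnd2* (0.58) were higher too. *Dcx*, doublecortin, counted 936, 1161, 1222 and 1492 in the cortex against 920.3, 965, 908 and 1029.7 in the hippocampus (log2 fold change -0.31 ± 0.11 (SE), limma adjusted p = 0.0377) and was thus the member called lower, with values that overlapped. Its call was lost in 10 of 22 alternatives (limma adjusted p = 0.0579 to 0.157), among them all 48 libraries in the fit and the fits without mouse 2, 3 or 4. The proliferation genes *Mki67* (log2 fold change -0.10) and *Top2a* (0.15) were not called.

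The genes of the WAVE regulatory complex, in which CYFIP1 or CYFIP2 is a subunit and which starts branched actin filaments, were examined because the line carries a *Cyfip2* allele. Of 11 members, 4 were higher and 4 lower (median 0.03). *Cyfip2* counted 32668, 30231, 32459.5 and 32714 in the cortex against 25227, 25736, 24342 and 25858 in the hippocampus (log2 fold change -0.34 ± 0.04 (SE), limma adjusted p = 1e-05). *Cyfip1* counted 2519, 2347, 2254 and 2429 in the cortex against 4312, 3985, 4021 and 4035 in the hippocampus (log2 fold change 0.78 ± 0.04 (SE), limma adjusted p = 5.24e-08). The 2 paralogs differed in opposite directions without overlap. *Wasf1* (log2 fold change 0.53), *Abi1* (0.43) and *Nckap1* (0.23) were higher with *Cyfip1*. *Brk1* (log2 fold change -0.31), *Abi2* (-0.23) and *Nckap1l*, the haematopoietic form of NCKAP1, (-0.26) were lower with *Cyfip2*. *Wasf2* (log2 fold change 0.12), *Wasf3* (0.00) and *Abi3* (0.03) were not called, with limma adjusted p of 0.385, 0.958 and 0.91.

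The 5 genes with the highest mean count were mitochondrial or resembled mitochondrial genes. *mt-Co1* (log2 fold change -0.25, limma adjusted p = 0.00194) and *mt-Cytb* (-0.19, limma adjusted p = 0.00496) were lower. *Gm10925* (log2 fold change -0.14), *Gm28437* (-0.14) and *Gm28661* (-0.15, called lower, but not with the mouse as a block, limma adjusted p = 0.0401 and 0.0604) are annotated pseudogenes on chromosome 1 that share sequence with the mitochondrial genome, and their values are uncertain because reads can be divided between the copies.

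The comparison was repeated in mice that share no library with it. In the 4 *Cyfip2*+/- mice of PWK 7, in which 1 *Cyfip2* allele is inactivated, 3661 genes were higher and 3661 lower (21.5% each). Of the 908 genes that were higher with a log2 fold change of at least 1 in WT mice, 885 were tested in *Cyfip2*+/- mice and 809 of those (91.4%) were called higher there. Of the 830 lower genes, 812 were tested and 766 (94.3%) were called lower. None was called in the opposite direction, and the medians were 1.64 in both genotypes for the higher genes and -1.51 and -1.50 for the lower ones. The log2 fold changes correlated at 0.944 across 16816 genes, which are not independent of each other. A test of the difference itself, which uses the same WT libraries, the interaction of region and genotype, called none of 17643 genes in limma (0% called), while 513 had an unadjusted p below 0.05 (2.91%). With the mouse as a block it also called none. The 5 smallest p of this interaction belonged to *Dsp*, *2310002F09Rik*, *Cdh13*, *Ripk3* and *Gm48079*, each with a limma adjusted p of 1. The log2 fold change of *Dsp* was 7.81 in WT and 8.81 in *Cyfip2*+/- mice, and that of the cadherin *Cdh13* was -0.39 and -0.80.

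At PWK 14, 2889 genes were higher and 3195 lower in the WT hippocampus (17% and 18.8%). Of the higher genes of PWK 7 with a log2 fold change of at least 1, 681 of 869 tested were called higher again (78.4%), and of the lower genes 743 of 802 (92.6%). In the opposite direction 2 of the higher genes and 0 of the lower genes were called. The log2 fold changes correlated at 0.901 across 16751 genes. The interaction of region and age called 13 genes (0.0737%), 6 with a larger and 7 with a smaller value at PWK 7. The smallest p belonged to *Snhg14*, the host transcript of small nucleolar RNAs next to *Ube3a*. *Snhg14* averaged 5922 in the cortex against 9615 in the hippocampus at PWK 7, and 7654 and 6159 at PWK 14, so its log2 fold change went from 0.70 to -0.33 (difference 1.03 ± 0.14, limma adjusted p = 0.0122). *Slc7a11*, a cystine transporter, also changed side (log2 fold change 0.30 at PWK 7 and -0.36 at PWK 14), as did *Lsm11* (-0.53 and 0.48). *Zbtb20* kept its side but averaged 17069 in the hippocampus at PWK 7 and 10125 at PWK 14, with little difference in the cortex (2288 and 2366, log2 fold changes 2.90 and 2.09, interaction limma adjusted p = 0.0284). *Marcksl1* (log2 fold change 0.12, called at PWK 7 but not with the mouse as a block, and 0.67) and *R3hdm2* (-1.23 and -0.77) kept theirs too. With the mouse as a block 2 genes were called, *Snhg14* (limma adjusted p = 0.015) and *Marcksl1* (limma adjusted p = 0.0495). The count also turned on single libraries, from 3 to 39, and these libraries are named with the dependence on the processing.

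PWK 1 was less alike. There, 2680 genes were higher and 2991 lower (15.9% and 17.8%), and of the higher genes of PWK 7 with a log2 fold change of at least 1, 572 of 793 tested (72.1%) were called higher, and of the lower genes 561 of 749 (74.9%). In the opposite direction 8 and 9 genes were called. The medians were 1.61 at PWK 7 against 1.06 at PWK 1 for the higher genes, and -1.49 against -0.90 for the lower ones. The log2 fold changes correlated at 0.759 across 16377 genes. The interaction called 2864 of 17686 genes (16.2%), 1303 with a larger and 1561 with a smaller value at PWK 7.

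The 5 smallest p of this interaction belonged to *Igsf9b*, *Slc29a4*, *Myo5b*, *C130074G19Rik* and *Rfx3*. *Igsf9b*, an adhesion protein of inhibitory synapses, averaged 9008 and 2898 in the cortex and hippocampus at PWK 7 and 5028 and 5686 at PWK 1 (log2 fold changes -1.64 and 0.18, difference -1.82 ± 0.09, limma adjusted p = 2.14e-09). The log2 fold change of *Slc29a4*, a monoamine transporter, went from 0.61 at PWK 1 to 3.01 at PWK 7, *Myo5b*, a myosin motor, from 0.49 to 2.13, *C130074G19Rik* from -0.39 to -2.36 and the ciliary factor *Rfx3* from 0.01 to 1.36. The dentate markers were unlike each other in this. *Prox1* had log2 fold changes of 3.47 at PWK 1 and 3.32 at PWK 7 (interaction -0.15, limma adjusted p = 0.252), whereas *Dsp* (4.54 and 7.81), *C1ql2* (4.96 and 7.60), *Lct* (1.95 and 4.17) and *Tdo2* (0.10 and 3.17) had larger differences at PWK 7, with limma adjusted p of the interaction of 2.13e-06 for *Dsp* and 1.32e-07 for *C1ql2*. *Fibcd1* of CA1 was not called (4.28 and 4.13, interaction limma adjusted p = 0.507). Of the genes that were lower in the hippocampus, *Otof* (-0.16 and -1.98), *Cbln2* (-0.79 and -3.00) and *Wnt10a* (0.46 and -2.20) had larger differences at PWK 7 than at PWK 1 and were called, while *Mef2c* (-2.89 and -2.56, interaction limma adjusted p = 0.241) was not called.

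**Figure D5:**
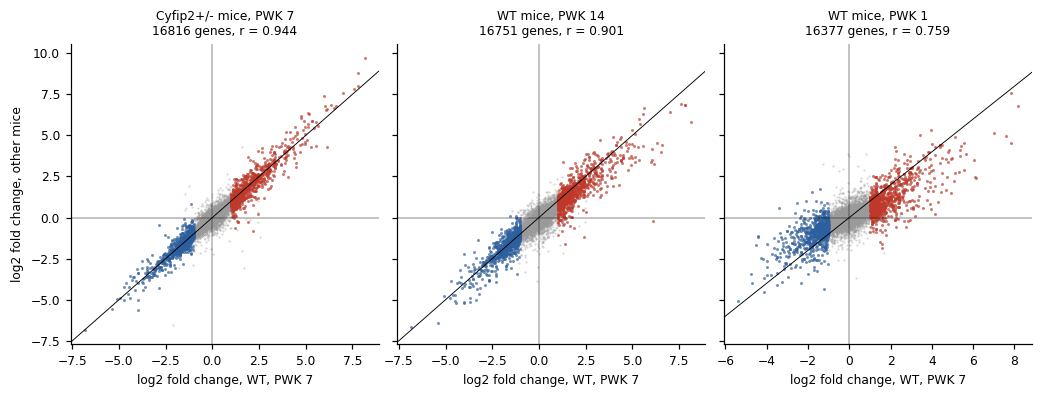
Log2 fold change, hippocampus over cortex, in WT mice of PWK 7 (x axis) against that in other mice (y axis): *Cyfip2*+/- mice of PWK 7, WT mice of PWK 14 and WT mice of PWK 1. Red and blue points are the 908 higher and 830 lower genes with an absolute log2 fold change of at least 1 in WT mice of PWK 7, the diagonal marks equal values, and the correlation across genes falls from 0.944 to 0.901 and 0.759.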

How the data were processed

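Frontal cortex and hippocampus were sequenced with a stranded TruSeq kit (101-bp paired-end reads). The authors estimated transcript abundance with Salmon (0.11.2 in the submitters' processing notes) on GRCm38, summed it to genes and normalised it with DESeq2 (1.19.11). These normalised counts are what the authors deposited, and they are used here as a signal. They are not whole numbers, and only 26.4% to 48.1% of low values lay within 0.1 of a whole multiple of the best step, so reads were not recovered and no count test was run. Read depth is therefore not given. The summed signal was 29.9 to 33.7 M (M, mega) per library over all 48 libraries. A signal per gene is not divided by length, so levels were not compared between genes.

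Genes that reached 10 in 4 or more libraries were kept. log2(value + 1) was tested with limma (3.58.1, R 4.3.3; trended empirical Bayes, Benjamini-Hochberg adjustment over all genes tested, called below 0.05, and in a stricter call also with an absolute log2 fold change of at least 1). Fold changes on this scale understate low genes. The fit used the 8 libraries without a block. Same-numbered libraries deviated together (correlations 0.146 to 0.195, against -0.136 to 0.029 for other pairs), and both regions came from each mouse, so the numbers pair the samples and the mouse was tried as a block. An exact permutation test of 4 against 4 cannot go below p = 0.0286 and was not used. Gene positions and types came from GENCODE annotation of GRCm38, which held 18414 of 18428 genes. Promoters are RefSeq windows of GRCm38. The kit keeps strand, but whether counting used it is not given in the sources used here, so overlapping genes may share reads.

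The members of the 37 gene lists and the comparison were chosen with earlier results of these data known. Genes were named by rule: the 15 largest and 15 smallest log2 fold changes among called genes without overlap and with a mean of at least 100 in the higher region. From a list of at most 13 genes any member could be named. From longer lists the 6 largest changes, the 3 highest means and any member called against the majority were named. All WAVE genes, the 5 smallest p of each interaction and the 5 highest means completed the rule. Some genes that it selects are not reported here, though list counts include them. Alternatives were other scalings, filters (none, or at least 50 in every library), pseudocounts (0.1 and 10), variance estimates and weights, all 48 libraries in the fit, the block, and leaving out each library or mouse. The test was checked on simulated data.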

Additional observations from a re-analysis of the deposited data

Results flagged for a closer look

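Of 138 groups of 4 libraries whose values are printed, 18 held a library apart from the others (the gap to its neighbour over the group's range above Dixon's critical value). Chance flags about 1 in 20 such groups, and genes of 1 library are not independent. In the hippocampus of mouse 4 the ratio was 0.893 for *Egr1*, 0.882 for *Fos*, 0.855 for *Arc*, 0.951 for *Egr2*, 0.866 for the immediate early gene sum and 0.927 for *Sgk1*, each as the highest value, and *Sgk1* was also highest in the cortex of that mouse (0.863). The same hippocampus was highest for *Cux2* (0.899) and *Zbtb20* (0.841) and lowest for *Dsp* (0.831). The hippocampus of mouse 1 was highest for *Lhx9* (0.849) and *Cyfip1* (0.847), and that of mouse 3 for *Cd4* (0.884). In the cortex, mouse 1 was highest for *Cck* (0.889), and mouse 2 was highest for *Chrm5* (0.982) and *Egr3* (0.884) and lowest for *Enpp2* (0.845) and *Cyfip2* (0.897).

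The region difference itself differed between ages by the interaction test. Between PWK 7 and PWK 14 it called 13 genes, of which those with the smallest p were *Snhg14* (interaction, PWK 7 minus PWK 14, 1.03 on the log2 scale), *Slc7a11* (0.66), *Lsm11* (-1.01), *Marcksl1* (-0.56) and *R3hdm2* (-0.46). Between PWK 7 and PWK 1 it called 2864 genes, led by *Igsf9b* (-1.82), *Slc29a4* (2.40), *Myo5b* (1.64), *C130074G19Rik* (-1.97) and *Rfx3* (1.35).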

How the results depend on the processing

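Over 10 other settings, genes called higher ranged from 3239 to 4228 and genes called lower from 3463 to 4184. Without 1 library they ranged from 3614 to 3909 and from 3678 to 3976, and without 1 mouse from 3222 to 3717 and from 3364 to 3826. With a log2 fold change of at least 1, asking each library to reach 50 left 307 higher and 407 lower genes, since it removes genes that are low in a region. Leaving out 1 library gave 883 to 988 and 831 to 922, and leaving out 1 mouse 867 to 969 and 808 to 890. The interaction of region and genotype called 0 genes in every setting. That of PWK 7 and PWK 14 called 13, but 2 with the mouse as a block, 99 with all 48 libraries in the fit and 3 to 39 without 1 library (3 without the PWK 7 cortex of mouse 1 or 2, the PWK 7 hippocampus of mouse 2 or 3 or the PWK 14 cortex 3, 4 without the PWK 7 hippocampus 1 or the PWK 14 cortex 2, 21, 23, 26 and 28 without the PWK 14 hippocampus 2, 1 and 4 and the PWK 14 cortex 4, and 39 without the PWK 7 cortex 4). The cause was not tested. That of PWK 7 and PWK 1 called 2419 to 3552.

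Pairing the samples by a mouse block gave 4228 higher and 4184 lower genes. Of the 297 named genes, 9 changed call with it, *Gad1*, *Grm7*, *Adgrb3*, *Bdnf*, *Sgk1*, *Tsc22d3*, *Junb*, *Gm28661* and *Marcksl1*, and no other named gene did. Call and direction were the same for 243 of the 297 under every alternative, of up to 22, in which the gene was tested. Genes low in a region were removed by the stricter filter, so their calls were not tested under it. The call of 31 called genes ended in at least 1 alternative, in 1 only for 12 of them and in 2 for 5. The other 14 were *Marcksl1* (13 alternatives), *Gm28661* (11), *C1ql3*, *Tmem119* and *Dcx* (10 each), *Rgs5* (9), *Adra1d* (8), *Sst*, *C1ql1* and *Slc17a6* (7 each), *Kcnd3* (5), *Abcc9* (4), *Plk5* and *Slco1a4* (3 each). With all 48 libraries in the fit *Wnt7b*, *Adcy9*, *Mbp*, *Mobp*, *Ermn* and *Fam163b* were not called either, and with quantile normalisation *Ntrk2*, *mt-Co1* and *mt-Cytb*. The call of *Per1* ended with the robust variance and without mouse 2, and those of *Htr3a*, *Nmb*, *Chrm1*, *Tcf7l1*, *Tnnt1*, *Pdgfra* and *Nckap1l* only without 1 library or mouse. Among the called ones only *mt-Co1* changed sign, with quantile normalisation (0.00). That setting also turned 5 genes that were not called, *Adcy1* (0.05), *Gm28437* (0.02), *Gm10925* (0.02), *Abi3* (-0.07) and *Ptprc* (-0.05). Without 1 library or mouse, 8 uncalled genes changed sign, with values of -0.09 to 0.52 (*Sgk1*), -0.10 to 0.18 (*Abi3*), -0.03 to 0.04 (*Wasf3*, 0.00 with rescaling), -0.27 to 0.29 (*Lck*), -0.24 to 0.00 (*Reln*), -0.21 to 0.01 (*Mki67*), -0.06 to 0.36 (*Top2a*) and -0.10 to 0.13 (*Ptprc*).

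With 4 mice and unknown depth, genes near a value of 10 carry the least information, and a fold against a region near 0 depends on the pseudocount. Dissection borders, cell composition and RNA per cell cannot be told apart in these pieces of tissue.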

Other observations

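Genes of T cells, chosen after their values were seen, did not move together. *Trbc2* and *Cd6*, a lymphocyte surface receptor (log2 fold change -3.97), were lower in the hippocampus. *Cd4*, the co-receptor of helper T cells, counted 62.0, 71.7, 43.1 and 139 in the cortex against 8.32, 9.55, 27.3 and 10.5 in the hippocampus (log2 fold change -2.45, limma adjusted p = 0.000332). All 4 cortices lay above all 4 hippocampi. *Ptprc*, present on all leukocytes (0.04, limma adjusted p = 0.815), the T cell kinase *Lck* (-0.05, 0.904) and *Trac*, the constant segment of the receptor's alpha chain (0.46, 0.202), were not called.

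Among the other genes called in the interaction of PWK 7 and PWK 14, 3 more are given here, also chosen after their values were seen. The potassium channel subunit *Kcnv1* had a log2 fold change of -2.08 at PWK 7 and -1.43 at PWK 14 (limma adjusted p of the interaction = 0.0296), the ataxin gene *Atxn1* -0.62 and -0.15 (0.0223), and the phosphodiesterase *Pde10a*, abundant in the striatum, -0.36 and 0.22 (0.0373). With the mouse as a block none of these 3 interactions was called.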
